A study of Mus musculus with 6 samples.

Results

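The genes described here are the 4 mouse Fc gamma receptors (Fcgr1, Fcgr2b, Fcgr3 and Fcgr4), the signalling chain Fcer1g and the Fc receptor-like genes Fcrls and Fcrl5. They were chosen by gene symbol, not by their values. All 7 were found among the 24054 genes of the count table, and all 7 were among the 12689 genes that passed the filter on low counts and were tested. They were measured in macrophages grown from mouse bone marrow with L929-conditioned media for 7 days, from C57BL/6 wild-type (WT) mice and from mice labelled C57BL/6-Kindlin3-integrin mutant. Kindlin-3, encoded by Fermt3, is the adaptor of blood cells that binds integrin tails and activates integrins. For 24 hours some of the cultures then received oxLDL at 50 µg/ml. OxLDL is oxidised low-density lipoprotein, which macrophages take up in atherosclerotic plaques. The mutant had 2 libraries for each treatment and wild type had 1. The labels do not state which residues are mutated, and do not say whether replicates with different numbers are different animals or cultures. The p-values therefore measure nothing beyond the spread between these libraries.

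Fc gamma receptors bind the constant part of IgG and so let macrophages take up and respond to particles coated with antibody. Fcgr1 (the high-affinity receptor), Fcgr3 and Fcgr4 are activating: each binds its ligand through its own chain and signals through the paired chain Fcer1g, whose activation motif is phosphorylated by Src-family kinases and recruits the kinase Syk. Fcgr2b is the inhibitory receptor. Its own tail carries an inhibitory motif that recruits lipid phosphatases, and the balance of activating receptors to Fcgr2b is held to set the threshold at which immune complexes activate a macrophage. Fcrls and Fcrl5 belong to the related Fc receptor-like family. Fcrls is known as a marker of microglia in the mouse, and Fcrl5 is best known from B cells.

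Library totals ran from 11281692 to 24273551 counts. Levels below are CPM, counts divided by the library's size and its trimmed-mean normalisation factor, and 3 counts in a single library correspond to 0.122 to 0.265 CPM. Replicates within a pair differed beyond counting noise: the mean chi-square per gene was 15.7 for untreated and 29.3 for oxLDL mutant cells. Within each treatment Fermt3 was lower in the 2 mutant libraries than in the single wild-type one. It stood at 241 and 249 against 403 CPM untreated, and at 146 and 153 against 188 CPM in oxLDL. Its level does not test a label that names a mutation and not a deletion. Macrophage markers (Csf1r, Emr1, Cd68, Lyz2 and others) summed to 34856, 27156 and 23877 CPM untreated (mutant first) and 24431, 18680 and 14367 CPM in oxLDL. Lyz2 was the largest part untreated in the mutant, at 20965 and 15487 CPM. Of 9 tested by edgeR across genotypes, 2 were higher and 4 lower with oxLDL, where 19.1% and 21.4% of all genes were. Emr1 went from 4425, 4417 and 6185 CPM to 823, 815 and 1095 CPM, and Cd68 from 1336, 965 and 858 CPM to 2135, 1884 and 1800 CPM. Markers of other cells differed between libraries. Neutrophil markers summed to 53.2 CPM in wild type untreated and 10.3 to 19.5 CPM elsewhere, and pancreatic markers to 269 CPM in wild type untreated, 199 and 159 CPM in mutant oxLDL and 1.79 to 3.47 CPM in the others. NK cell markers reached at most 0.535 CPM. B cell markers summed to 1.39 to 25.8 CPM, with Cd79b the largest part in every library, while Pax5 and Blk were at 0 in every library. Both remaining lists moved with oxLDL. Mast cell or basophil markers summed to 6.53, 3.81 and 0.256 CPM in the untreated libraries (mutant first) and 70.3, 24.6 and 6.84 CPM in oxLDL, nearly all of the latter from Kit, with Fcer1a, Mcpt4 and Mcpt8 at 0 throughout. Dendritic cell markers summed to 19.8, 25.4 and 8.02 CPM untreated and 1.98, 2.73 and 1.98 CPM in oxLDL, and Cd207 went from 15.5, 19.8 and 1.48 CPM to 0 in all 3. The part of these cells in the oxLDL values below was not tested.

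The sequences just before the start sites of the 4 receptors are shown because these receptors are neighbours in function that moved in different directions with oxLDL. Each line gives the 250 bases before the annotated start, on the gene's own strand, from RefSeq on the build GRCm38.p6. The capitals mark matches to 3 motifs searched on both strands. TTCNNNGAA is the gamma-activated site of interferon-responsive promoters, and GAAANNGAAA is a core of interferon-stimulated response elements. GAGGAA is a PU.1 form of the ETS site, longer than the core GGAA that ETS factors share.

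Fcgr1, chr3:96293970-96294219, minus strand: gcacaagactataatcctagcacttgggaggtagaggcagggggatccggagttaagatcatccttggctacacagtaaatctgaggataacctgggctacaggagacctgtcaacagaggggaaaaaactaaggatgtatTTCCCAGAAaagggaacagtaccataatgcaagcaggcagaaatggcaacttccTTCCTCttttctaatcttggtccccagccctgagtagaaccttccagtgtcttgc
Fcgr3, chr1:171059404-171059653, minus strand, the first of 2 annotated starts: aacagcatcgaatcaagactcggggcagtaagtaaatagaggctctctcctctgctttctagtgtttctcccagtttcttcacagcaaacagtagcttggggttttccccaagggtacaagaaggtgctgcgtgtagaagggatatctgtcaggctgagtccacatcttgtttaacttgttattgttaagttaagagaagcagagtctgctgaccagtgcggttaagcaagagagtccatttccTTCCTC
Fcgr4, chr1:171018676-171018925, plus strand: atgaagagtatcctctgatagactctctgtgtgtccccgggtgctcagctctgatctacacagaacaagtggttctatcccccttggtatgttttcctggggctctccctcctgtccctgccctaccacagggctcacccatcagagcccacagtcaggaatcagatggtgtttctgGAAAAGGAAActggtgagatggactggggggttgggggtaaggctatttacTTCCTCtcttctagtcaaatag
Fcgr2b, chr1:170976072-170976321, minus strand: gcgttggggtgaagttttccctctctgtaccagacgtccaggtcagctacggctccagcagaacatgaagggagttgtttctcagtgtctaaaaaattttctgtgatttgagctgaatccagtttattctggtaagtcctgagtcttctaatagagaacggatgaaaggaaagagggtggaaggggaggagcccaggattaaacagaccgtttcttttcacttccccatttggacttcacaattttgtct

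The Fcgr1 stretch held TTCNNNGAA at 109 to 101 bases before the start and GAGGAA, on the opposite strand, at 55 to 50 bases. Fcgr3 held GAGGAA at 6 to 1 bases before the first start, and Fcgr4 at 22 to 17 bases, both on the opposite strand. Fcgr4 alone of the 7 genes held GAAANNGAAA, at 73 to 64 bases. Fcrls held GAGGAA at 144 to 139 bases, and none of the 3 motifs was found in the windows of Fcgr2b, Fcer1g or Fcrl5. The shorter GGAA was not searched for, and the Fcgr2b stretch printed above does hold it. Among 27025 mouse promoters cut in the same way, 7.18% held TTCNNNGAA, 23.1% held GAGGAA and 3.04% held GAAANNGAAA. A match describes the letters and does not show a bound site.

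Fcgr2b and Fcgr3 are also alike in their coding sequence, which matters for reading their counts. Of the 7 genes, this pair alone shared 75-base stretches with each other, 94 in all, which made 7.38% of those of Fcgr3. For Fcgr2b the stretches shared with any gene, among them the gene models Gm35909 and Gm4117, came to 7.09%. Their longest identical run, 129 bases, lies at coding bases 278 to 406 of Fcgr2b and 263 to 391 of Fcgr3 in mouse transcripts of GENCODE release M21, within the extracellular part:

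Fcgr2b and Fcgr3: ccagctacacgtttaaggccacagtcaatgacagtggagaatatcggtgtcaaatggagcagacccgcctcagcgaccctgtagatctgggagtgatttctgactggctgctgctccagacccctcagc

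RSEM expected counts divide reads that fit several genes among them. The sum of the pair's counts was a whole number in all 6 libraries, whereas each gene alone had fractional counts.

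With oxLDL the activating receptors moved apart. Across genotypes Fcgr1 fell 9.63-fold and Fcgr4 3.59-fold, Fcgr3 rose 2.91-fold and their shared chain Fcer1g fell 1.54-fold, while the inhibitory Fcgr2b was higher by 0.27 on the log2 scale. Of the Fc receptor-like genes, Fcrls fell 9.88-fold, about as far as Fcgr1, and Fcrl5 35.0-fold. Across both genotypes (3 oxLDL against 3 untreated libraries) all 7 genes passed edgeR's quasi-likelihood test at an adjusted p under 0.05, 2 higher and 5 lower. This test called 40.5% of all genes tested, 19.1% higher and 21.4% lower. Within the mutant alone, 6 of the 7 passed, 1 higher and 5 lower, where 35.6% of all genes passed. In these bulk samples, fewer cells of a type and less RNA per cell cannot be told apart.

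**Figure D1:**
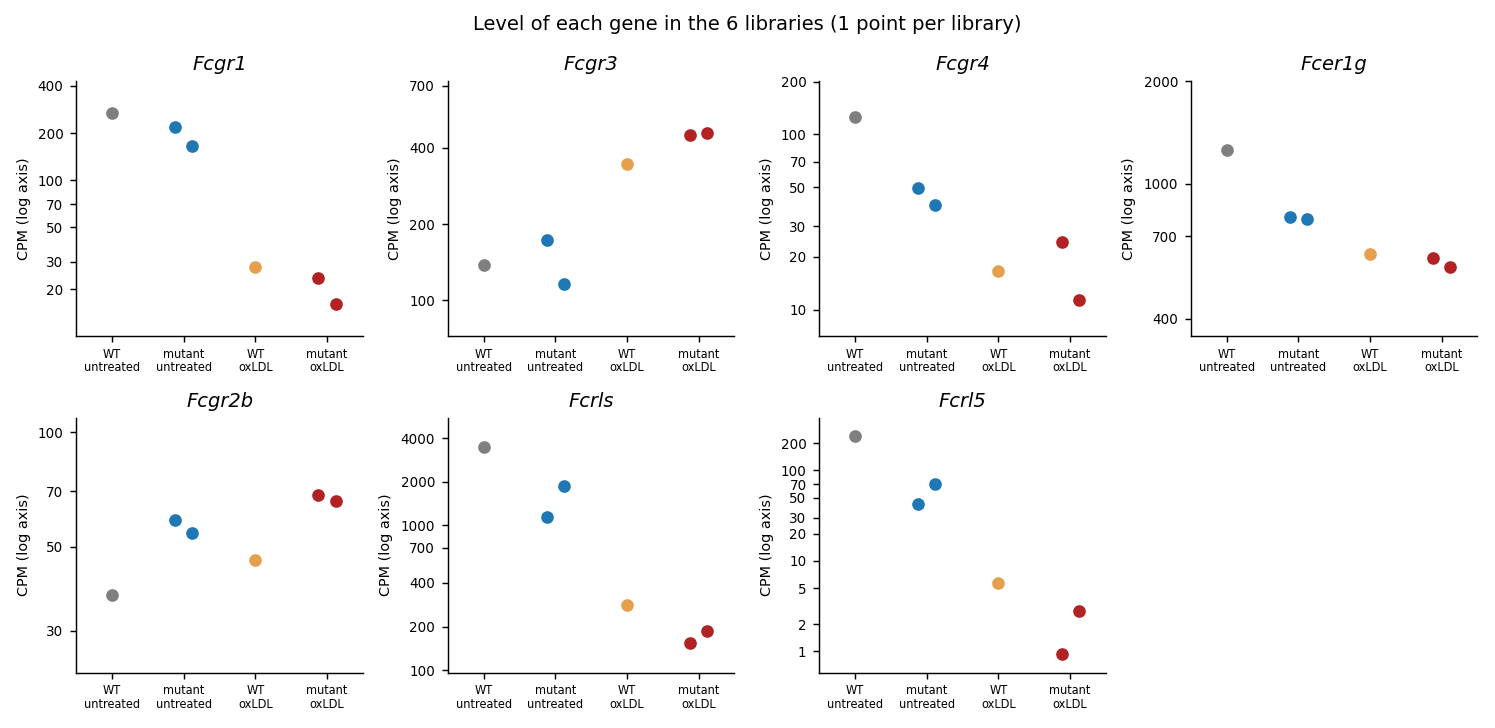
Level of each of the 7 genes in CPM on a log axis, 1 point per library, by group (WT, wild type). In every panel except Fcgr2b the 3 oxLDL libraries lie on one side of the 3 untreated ones: above them for Fcgr3 and below them for the others. The share of all genes tested that separate in this way was not counted, and 40.5% passed the edgeR test across genotypes.

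Fcgr1 stood at 219 and 165 CPM in the mutant untreated libraries and 269 CPM in wild type untreated. In oxLDL it stood at 23.7 and 16.1 CPM in the mutant and 27.8 CPM in wild type. Every oxLDL library lay far below every untreated one, and the genotypes lay close together within each treatment. In the mutant the mean went from 192 ± 37.9 to 19.9 ± 5.36 CPM (SD, n = 2 each). The log2 fold change across genotypes was -3.27 ± 0.18 (SE), with an edgeR adjusted p of 0.000109. The change was -3.26 ± 0.23 in the mutant (edgeR adjusted p 0.000510) and -3.27 between the single wild-type libraries.

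Fcgr3, the most widely expressed activating receptor of myeloid cells, moved the other way. It stood at 172 and 116 CPM in mutant untreated and 138 CPM in wild type untreated, and rose with oxLDL to 447 and 458 CPM in the mutant and 346 CPM in wild type. The groups did not overlap, and the lowest oxLDL library was above the highest untreated one. Its log2 fold change was 1.54 ± 0.16 across genotypes (edgeR adjusted p 0.000834), 1.65 ± 0.19 in the mutant (edgeR adjusted p 0.00216) and 1.32 in wild type. The sum of Fcgr2b and Fcgr3, which does not depend on how shared reads were divided between them, went from 231, 170 and 176 CPM in the untreated libraries to 515, 524 and 392 CPM in oxLDL, again without overlap. Fcgr2b made 25.5%, 31.9% and 21.2% of that sum in the untreated libraries and 13.2%, 12.6% and 11.8% in oxLDL.

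Fcgr4, an activating receptor of monocytes, macrophages and neutrophils, was at 126 CPM in untreated wild-type cells and at 49.6 and 39.5 CPM in untreated mutant cells. In oxLDL it was at 16.5 CPM in wild type and 24.3 and 11.3 CPM in the mutant. The treatments did not overlap, but the untreated libraries differed among themselves by more than for Fcgr1. The log2 fold change was -1.84 ± 0.42 across genotypes (edgeR adjusted p 0.0137), -1.31 ± 0.34 in the mutant (edgeR adjusted p 0.0301) and -2.92 in wild type. Without the wild type untreated library, which carried the highest neutrophil marker sum, treatments are compared only within the mutant, and the change was -1.32. Within the mutant the call was lost without either untreated replicate, with adjusted p of 0.120 without replicate 1 and 0.0695 without replicate 2.

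Fcer1g, the chain that all 3 activating receptors need, was at 1253 CPM in untreated wild-type cells and 795 and 788 CPM in untreated mutant cells. With oxLDL it was at 621 CPM in wild type and 603 and 570 CPM in the mutant. The oxLDL libraries were all below the untreated ones, by less than for the other genes that fell. Its log2 fold change was -0.63 ± 0.14 across genotypes (edgeR adjusted p 0.0135), -0.43 ± 0.11 in the mutant (edgeR adjusted p 0.0270) and -1.01 in wild type. The call across genotypes held under each of the 11 alternatives, whereas the call in the mutant was lost when any 1 mutant library was left out, with adjusted p from 0.0694 to 0.137. Its fellow adaptor Tyrobp, which carries an activation motif of the same kind, did not pass, at 541, 510 and 645 CPM in the untreated and 545, 577 and 571 CPM in the oxLDL libraries (mutant first).

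Fcgr2b was at 58.8 and 54.3 CPM in mutant untreated and 37.3 CPM in wild type untreated, and with oxLDL at 68.2 and 66.0 CPM in the mutant and 46.1 CPM in wild type. It was higher with oxLDL within each genotype, but the wild type oxLDL library lay below both mutant untreated libraries, so the treatments overlapped. The log2 fold change across genotypes was 0.27 ± 0.082, with an edgeR adjusted p of 0.0411, and that call was lost under 10 of 11 alternatives, with adjusted p up to 0.134. In the mutant alone the value was 0.25 ± 0.097 (edgeR adjusted p 0.0996), which did not pass, and between the wild-type libraries it was 0.30.

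Of the Fc receptor-like genes, Fcrls stood at 3476 CPM in untreated wild-type cells and at 1137 and 1871 CPM in the untreated mutant, and with oxLDL at 282 CPM in wild type and 154 and 186 CPM in the mutant. Its log2 fold change was -3.31 ± 0.24 across genotypes (edgeR adjusted p 0.000224), -3.15 ± 0.27 in the mutant (edgeR adjusted p 0.000894) and -3.62 in wild type. The lowest untreated library was still above the highest oxLDL library. Fcrl5 fell furthest of the 7, from 42.2 and 71.4 CPM in mutant untreated and 238 CPM in wild type untreated to 0.933 and 2.77 CPM in the oxLDL-treated mutant and 5.75 CPM in oxLDL-treated wild type. Its log2 fold change was -5.13 ± 0.39 across genotypes (edgeR adjusted p 0.000254), -4.98 ± 0.48 in the mutant (edgeR adjusted p 0.00121) and -5.34 in wild type. The B cell marker Cd79b was also lower with oxLDL, at 5.20, 12.7 and 25.3 CPM untreated and 1.01, 1.19 and 4.03 CPM in oxLDL (mutant first), while Pax5 and Blk were at 0 throughout. The part of B cells in the Fcrl5 values was not tested.

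Between the single wild-type libraries, 6 of the 7 genes passed a size rule of at least 5 CPM in either library and at least a 2-fold change, 1 higher and 5 lower, where 19.6% of the 9840 genes with enough signal did, 7.92% higher and 11.7% lower. Only Fcgr2b stayed under 2-fold. With 1 library per arm this comparison has no replicate check.

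**Figure D2:**
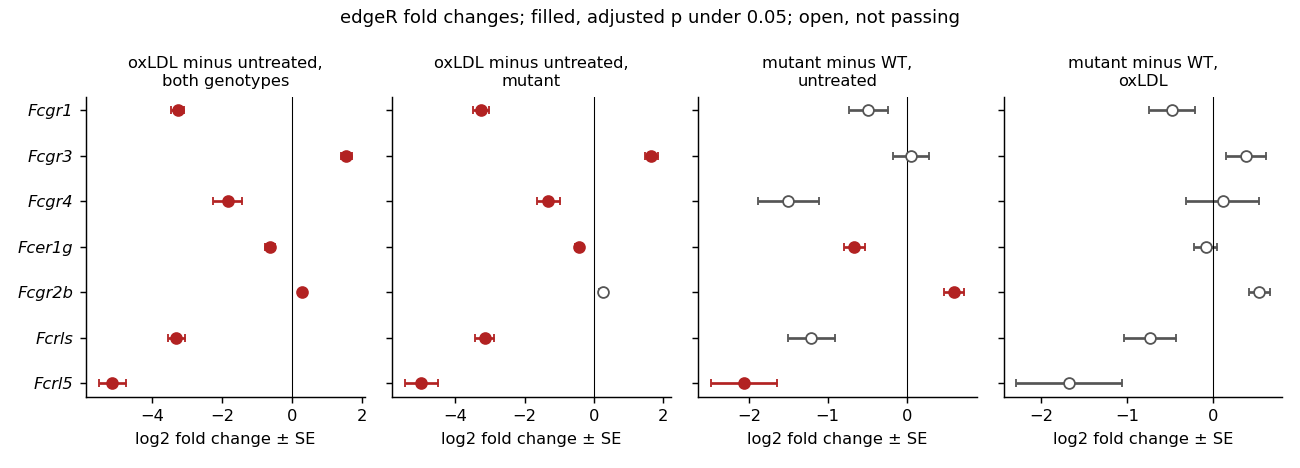
edgeR log2 fold change of each gene with its approximate standard error, for oxLDL minus untreated (both genotypes, and mutant alone) and for mutant minus wild type (untreated, and oxLDL). Filled points have an adjusted p under 0.05. The oxLDL panels run from -5.13 for Fcrl5 to 1.65 for Fcgr3, and in oxLDL-treated cells none of the 7 genes differed between genotypes at that threshold.

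Because the activating receptors moved apart, the activating to inhibitory balance depended on which receptor was counted. On the log2 scale of expected counts, Fcgr1 over Fcgr2b went from 1.90, 1.61 and 2.85 in the untreated libraries (mutant replicates 1 and 2, then wild type) to -1.52, -2.03 and -0.73 in oxLDL. Fcgr4 over Fcgr2b went from -0.25, -0.46 and 1.76 to -1.49, -2.54 and -1.48. Fcgr3 over Fcgr2b went from 1.55, 1.09 and 1.89 to 2.71, 2.79 and 2.91. The mean differences, oxLDL minus untreated, were -3.54 for Fcgr1, -2.19 for Fcgr4 and 1.29 for Fcgr3 on the log2 scale. Treatments did not overlap for any of these ratios, and each had a two-sided exact permutation p of 0.1, the smallest that 3 against 3 libraries allow (0.117 after adjustment over the 7 ratios tested). The ratio of Fcgr3 to Fcgr1 moved most, by 4.84 on the log2 scale, or 28.6-fold. Fcer1g over Fcgr2b was lower with oxLDL by a mean log2 difference of -0.89, also with an exact permutation p of 0.1.

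The sum of Fcgr1, Fcgr3 and Fcgr4 over Fcgr2b, in contrast, did not separate the treatments. In counts the ratio was 7.49 and 5.91 in mutant untreated, 7.26 and 7.35 in mutant oxLDL, 14.3 in untreated and 8.46 in oxLDL-treated wild-type cells. The mean log2 difference, oxLDL minus untreated, was -0.16, with a two-sided exact permutation p of 0.8. Wild type untreated stood above the other 5 libraries, and without it the difference was 0.20 (exact permutation p 0.6). The sign also depended on how the receptors were weighted: with counts per kilobase of the longest coding transcript it was 0.18, and with the mean of the 3 log2 ratios, each receptor counting equally, it was -1.48 (exact permutation p 0.1). Per kilobase, the log2 change was 0.49 in the mutant and -0.43 in wild type. By genotype, the log2 ratio of counts was lower in the mutant by a mean of -0.66, and both wild-type libraries lay above all 4 mutant ones, with an exact permutation p of 0.133, the smallest that 4 against 2 allow. Most of that difference lay in the untreated cells, at -1.10, against -0.21 in oxLDL.

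**Figure D3:**
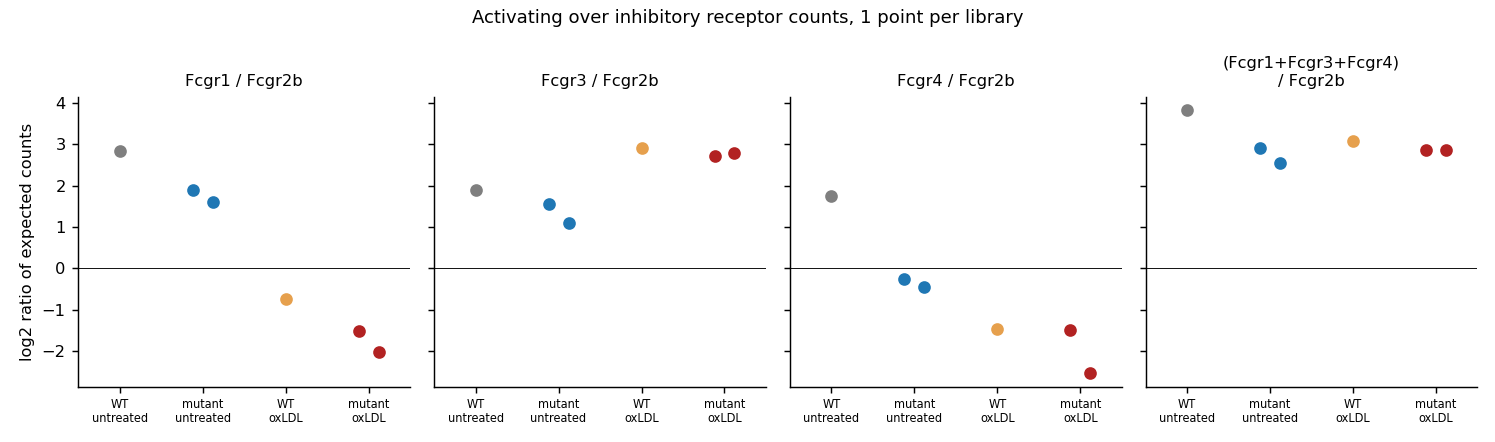
log2 ratio of expected counts of each activating receptor, and of their sum, to the inhibitory Fcgr2b, 1 point per library. The Fcgr1 and Fcgr4 ratios are lower and the Fcgr3 ratio higher in all 3 oxLDL libraries, while the ratio of the sum differs by -0.16 between the treatment means.

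Levels of different genes were compared as CPM per kilobase of the longest coding transcript. Fcer1g had the highest level per kilobase in every library, from 834 to 1834 CPM per kilobase. Fcrls was second in the 3 untreated libraries, at 500 to 1529 CPM per kilobase, and Fcgr3 second in the 3 oxLDL libraries, at 257 to 340. Among the activating receptors, wild type untreated cells held nearly equal parts of Fcgr1 (33.8%), Fcgr3 (33.5%) and Fcgr4 (32.7%) of the summed level per kilobase. In mutant untreated cells the parts were 33.6% and 35.2% for Fcgr1, 50.8% and 47.4% for Fcgr3 and 15.7% and 17.4% for Fcgr4. With oxLDL, Fcgr3 made 91.5% in wild type and 92.1% and 95.7% in the mutant, while Fcgr1 made 1.76% to 3.83% and Fcgr4 2.54% to 5.37%. Dividing by the coding length instead gave 90.5% to 95.2% for Fcgr3 in oxLDL and 30.7% to 46.5% in untreated cells. The summed level itself did not separate the treatments, at 252, 181 and 307 CPM per kilobase untreated and 360, 355 and 281 CPM per kilobase in oxLDL.

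**Figure D4:**
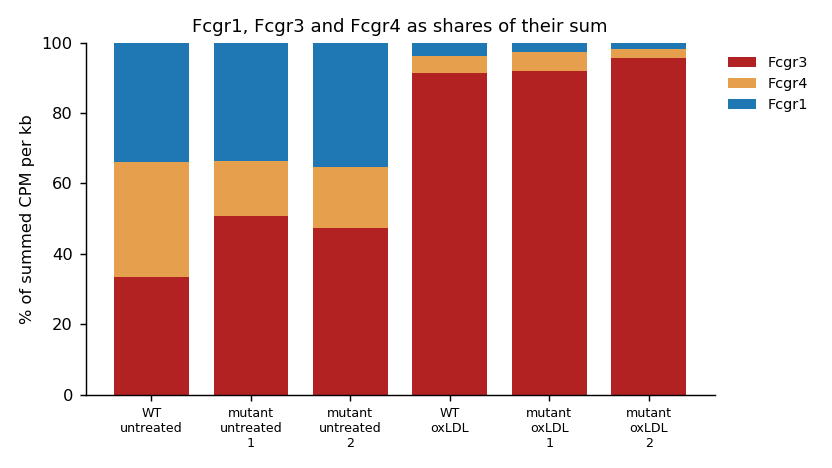
Fcgr1, Fcgr3 and Fcgr4 as percentages of their summed level (CPM per kilobase of the longest coding transcript), 1 bar per library. Fcgr3 makes 33.5% to 50.8% in the untreated libraries and 91.5% to 95.7% in oxLDL.

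Genotype differences were seen in untreated cells. Compared with the single wild type library, the mutant pair had more Fcgr2b and less Fcer1g and Fcrl5, 3 of the 7 genes by edgeR, 1 higher and 2 lower, where 7.06% of all genes passed (4.24% higher, 2.82% lower). Fcgr2b was higher, at 0.60 ± 0.12 on the log2 scale (adjusted p 0.0456), Fcer1g lower at -0.66 ± 0.13 (0.0419) and Fcrl5 lower at -2.06 ± 0.42 (0.0453). Fcgr4 at -1.50 ± 0.39 (0.0730) and Fcrls at -1.21 ± 0.30 (0.0671) missed the threshold, and Fcgr1 (-0.48) and Fcgr3 (0.06) had adjusted p of 0.274 and 0.905. All 3 calls were lost without mutant untreated replicate 1, and those of Fcgr2b, Fcer1g and Fcrl5 had adjusted p of 0.0868, 0.112 and 0.0720 without replicate 2. Under DESeq2 Fcrl5 was not called (adjusted p 0.153), whereas Fcgr4 (0.00354) and Fcrls (0.000371) were.

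The wild type untreated library, on which these values rest, also held the neutrophil transcripts S100a9 (9.92 CPM), Ltf (8.28 CPM) and Ngp (12.5 CPM), which reached at most 0.212 CPM in any other library. S100a8 was highest there too, at 7.62 CPM. Other markers of the list did not stand out there. Mmp8 was at 8.33 CPM, against 13.2 and 10.5 CPM in mutant untreated, and Cxcr2 at 5.74 CPM, against 5.58 and 5.63 CPM. The same library held pancreatic transcripts such as Pnlip (20.9 CPM, against 0 in both mutant untreated libraries). The part of these neutrophil and pancreatic transcripts in the genotype values was not tested. The oxLDL-treated wild-type library had sums of 10.3 CPM for the neutrophil and 1.79 CPM for the pancreatic markers, and there the mutant pair carried the pancreatic transcripts.

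In oxLDL-treated cells none of the 7 genes passed by edgeR or by DESeq2, where edgeR called 0.481% of all genes. Of those 61 genes, 11 were pancreatic markers. In edgeR 2 of the 7 (Fcgr2b and Fcrl5) had an unadjusted p under 0.05, as did 14.3% of all genes tested. Fcgr2b was again higher in the mutant, at 0.54 ± 0.12 (edgeR adjusted p 0.146), close to its value in untreated cells. Fcrl5 was at -1.68 ± 0.61 (0.300), Fcrls at -0.73 ± 0.30 (0.353), Fcgr1 at -0.48, Fcgr3 at 0.39, Fcgr4 at 0.11 and Fcer1g at -0.08.

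Over both treatments together (4 mutant against 2 wild-type libraries), Fcgr2b was higher in the mutant at 0.57 ± 0.089 (edgeR adjusted p 0.0335), and Fcrl5 lower at -1.92 ± 0.35 (0.0435). These 2 of 7 genes compare with 4.05% of all genes, 2.54% higher and 1.51% lower. For both genes the mutant and wild-type libraries did not overlap within either treatment, but the same held for Fcgr1, Fcer1g and Fcrls. The share of all genes that separate in this way was not counted. Without wild type untreated, only oxLDL-treated cells compare the genotypes. The values, 0.55 for Fcgr2b and -1.66 for Fcrl5, then repeat the 0.54 and -1.68 of that comparison and are no separate check. Each of the 2 calls was lost under 4 of 10 alternatives. Among these, both were lost without mutant oxLDL replicate 1 (0.0797 and 0.0573), mutant untreated replicate 1 (0.0963 and 0.108) or mutant untreated replicate 2 (0.117 and 0.132). Fcrls, at -0.98 (0.0646), was not called, but passed with DESeq2 (0.000534) and with no filter on low counts (0.00474). Without wild type untreated Fcgr4 went from -0.80 to 0.12 and Fcer1g from -0.38 to -0.08, again the comparison in oxLDL-treated cells alone. Neither was called with all libraries.

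Whether the oxLDL response itself differed between genotypes was tested as an interaction. None of the 7 genes passed by edgeR or by DESeq2, where edgeR called 0.489% of all genes. Of those 62 genes, 15 were pancreatic markers. An unadjusted edgeR p under 0.05 was reached by 2 of the 7, and by 11% of all genes tested. The 2 were Fcer1g, whose fall was smaller in the mutant by 0.58 ± 0.19 on the log2 scale (edgeR adjusted p 0.363), and Fcgr4, whose fall was smaller by 1.61 ± 0.59 (0.416). Fcgr4 passed only with no filter on low counts or without mutant oxLDL replicate 2. For Fcgr1 the difference in response was 0.01 ± 0.38 and for Fcgr2b -0.06 ± 0.17.

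The pathway genes around the receptors moved with oxLDL in both directions. Of 30 genes of activating Fc receptor signalling, 3 were higher and 17 lower across genotypes, where 19.1% and 21.4% of all genes were. Their median log2 fold change was -0.44 against 0.01 over all genes tested. Lyn, a Src-family kinase that starts the signal, fell from 411, 454 and 679 CPM to 130, 124 and 151 CPM (mutant first), a log2 fold change of -1.90 ± 0.12 (edgeR adjusted p 0.000142). Syk, the kinase recruited to Fcer1g, fell by 0.54 (0.0187). Downstream, the exchange factor Vav1 fell by 1.54, the adaptor Lcp2 by 1.50 and the phosphoinositide 3-kinase subunit Pik3r1 by 1.01, whereas the adaptor Lat2 rose by 1.42.

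Of 17 genes of inhibitory signalling, 4 were higher and 9 lower, with a median of -0.34. Of all genes, 19.1% were higher, which is near the share of this list, and 21.4% lower. Inpp5d, the lipid phosphatase that Fcgr2b recruits, fell by 0.72 (edgeR adjusted p 0.00440). The tyrosine phosphatase Ptpn6 fell by 1.92, the adaptors Dok2 and Dok3 by 1.49 and 1.78, and the inhibitory lectin Clec12a by 2.32. Siglece, an inhibitory sialic acid receptor, fell from 123, 221 and 474 CPM to 2.76, 9.36 and 8.31 CPM, a log2 fold change of -5.18 ± 0.51. Cd300a, another inhibitory receptor, rose by 1.44, so that inhibitory receptors moved both ways, as the activating ones did.

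Other receptors that signal through Fcer1g or Tyrobp, listed together with the adaptors Tyrobp and Hcst, were the one pathway list whose median was above 0. Of 16 genes tested, 7 were higher and 3 lower, with a median of 0.42. Of all genes, 19.1% were higher and 21.4% lower, so the share that fell was near that of all genes. Clec4n (Dectin-2), which pairs with Fcer1g to bind fungal mannan, rose from 39.1, 27.0 and 9.56 CPM to 260, 207 and 157 CPM, a log2 fold change of 3.21 ± 0.29 (edgeR adjusted p 0.000479). Clec4d rose by 1.76 and Pira2 by 1.05, while the paired receptors Pilrb1 and Pilrb2 fell by 2.62 and 2.85. Pira4, a paired receptor with near-identical relatives, had 13.3 and 47.2 CPM in mutant oxLDL and 0 in the other 4 libraries. Set against 3 counts summed over all untreated libraries, it was at least 303-fold higher, and all of it came from the mutant pair. With this bound the list's median was again 0.42.

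Of 17 genes that regulate Fc receptor transcription, 1 was higher and 11 lower, where 19.1% and 21.4% of all genes were, with a median of -0.58. Stat2, a factor of the type I interferon response, fell from 217, 161 and 239 CPM to 48.9, 46.3 and 57.8 CPM, a log2 fold change of -2.01 ± 0.13 (edgeR adjusted p 0.000150). Irf1 fell by 1.23, the interferon gamma receptor chain Ifngr1 by 0.97 and the interleukin-10 receptor chain Il10ra by 1.41. The cytokine-signalling inhibitor Socs3 fell by 3.37. Spi1, which encodes PU.1, fell by 1.03 (0.00151).

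Of the other Fc receptors, 4 of 11 passed the filter on low counts. Trim21, the cytosolic antibody receptor, fell by 1.41 and Pigr, the polymeric immunoglobulin receptor, by 2.39. The neonatal receptor Fcgrt had a log2 fold change of -0.57 (edgeR adjusted p 0.0481), a call lost under 6 of 11 alternatives, and Fcrl1 was at -0.13 (0.731). The lists were chosen with earlier results of these data known, so their counts describe the pathway and are no independent evidence.

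**Figure D5:**
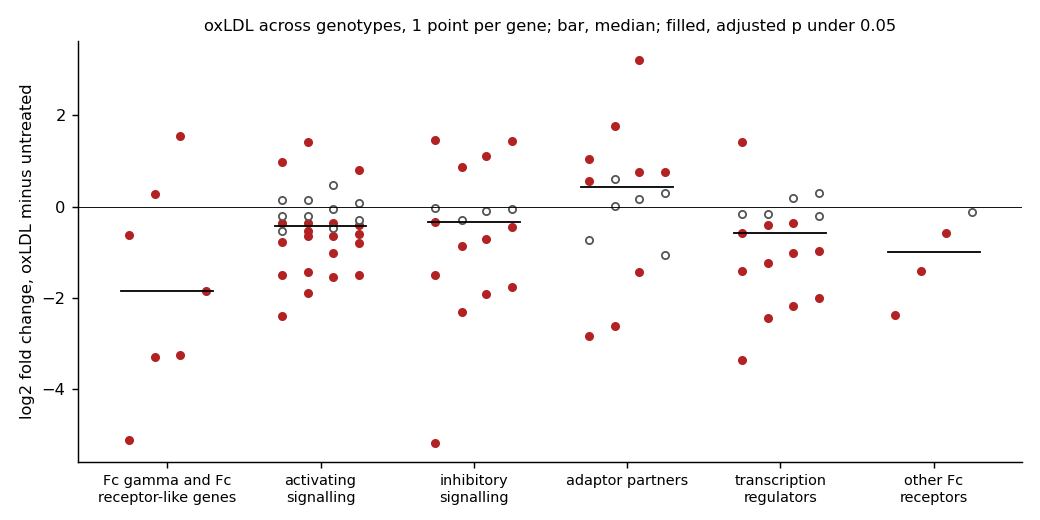
log2 fold change of every tested gene of each list for oxLDL across genotypes. Points are genes, filled where the edgeR adjusted p was under 0.05, and bars are list medians. Pira4, with 0 counts in 4 libraries, is not drawn but counted in its list's median of 0.42. Fcgr2b is drawn as filled, although its call was lost under 10 of 11 alternatives.

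By genotype across treatments, 4.05% of all genes tested passed, 2.54% higher and 1.51% lower. Of 30 activating signalling genes 1 was higher, and of 16 adaptor partners 2 were higher and 1 lower. Among activating signalling genes Src was higher in the mutant, at 1.35 ± 0.23 (edgeR adjusted p 0.0386), and among adaptor partners Pira2 (1.21, 0.0308) and Clec4e (1.46, 0.0453) were higher and Cd300ld (-1.83, 0.0324) lower. No gene of the inhibitory list, of the transcription regulators or of the other Fc receptors passed. Without wild type untreated, where only oxLDL-treated cells compare the genotypes, these 4 genes had log2 fold changes of 0.97, 1.29, 1.10 and -1.23. The calls of Src, Pira2 and Clec4e were lost under 4 of 10 alternatives each, and that of Cd300ld under 3 of 10.

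The pattern of each gene over the 6 libraries was compared with that of 8518 other tested genes with a mean of at least 10 CPM, by the root mean square difference of centred log2 levels. Nearest to Fcgr1 were Gm5431 (0.16), the RNA helicase gene Dhx58 (0.17) and the nucleotide kinase gene Cmpk2 (0.20). For Fcgr3 they were Cd300a (0.08), Pdzk1ip1 (0.08) and Zbtb38 (0.09), and for Fcgr2b Ivd, Kctd9 and Agk (0.07 each). Fcer1g was nearest to Syk (0.06), its own downstream kinase, then Tmf1 and Ppp1r9b (0.06 each). For Fcgr4, Itgam (0.27), the integrin chain of macrophages and neutrophils, came first, then Rhof (0.27) and Serp1 (0.30). For Fcrls it was the integrin chain Itga9 (0.12), then Cnn2 (0.22) and Gpr126 (0.23), and for Fcrl5 Tmem176b (0.26), Tmem176a (0.38) and Siglece (0.40). Among the 7 genes themselves, Fcgr1 and Fcrls were the closest pair (0.48) and Fcgr3 and Fcrl5 the farthest apart (3.39). These distances rest on 6 libraries and are given as a description.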

How the data were processed

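Polyadenylated RNA of bone marrow-derived macrophages was sequenced as 150-base read pairs from a stranded kit, per the labels' protocols. The submitters' processing notes name Bowtie2 2.1.0, RSEM 1.2.15 and edgeR. They name a human build although the symbols are those of mouse genes, so which build was used for counting is unclear. Both tables deposited by the authors were used: expected counts of RSEM, and a normalised signal made from them. In the deposited signal 100% of values are whole multiples of 1 read within 1e-06, and these reads match the rounded expected counts in 99.89% or more of the genes of each library.

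Expected counts were rounded, filtered with filterByExpr (12689 of 17143 genes with any count) and tested with the quasi-likelihood test of edgeR 4.0.16 (R 4.3.3) with trimmed-mean factors and Benjamini-Hochberg adjustment over all genes tested, at 0.05. A model of 4 group means gave the comparisons within a group and the interaction, and an additive model of genotype and treatment the comparisons across groups. The spread of the mutant pairs was lent to wild type, which has 1 library per arm. SE are approximate, from the F statistic. Wild type alone was described by size with a prior count of 2. Ratios used expected counts plus 0.5 per gene. The test script was checked on simulated counts with large changes and the same spread for every gene. That check covers the working of the script and not its error rates in these data. Alternatives were other size factors, no filter, DESeq2 1.42.0, a replicate block, leaving out each library, and, chosen after seeing the data, the recovered reads and ratios per kilobase.

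Named were all 7 genes, up to 6 genes per pathway list with the smallest p for oxLDL across genotypes and up to 4 for genotype across treatments, and the 3 nearest patterns per gene. Tyrobp, Syk, Inpp5d, Spi1 and the markers were added for their roles, after values were seen. A few genes under this rule are left out of the text. The genes and lists were chosen with earlier results of these data known. All 7 matched the RefSeq promoter table. Lengths and shared stretches come from mouse transcripts of GENCODE release M21.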

Additional observations from a re-analysis of the deposited data

Results flagged for a closer look

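Of the genes in the pathway lists, 2 differed between genotypes in their oxLDL response by the interaction test, where 0.489% of all genes passed. Both belong to the 17 genes listed as regulating Fc receptor transcription, and no gene of the other pathway lists passed. Pancreatic markers were left out of this search, and 15 of those 17 markers passed. C5ar1, the receptor for the complement fragment C5a, which is known to shift the balance of Fcgr3 to Fcgr2b in macrophages, had a response lower in the mutant by a log2 difference of -2.83 (edgeR adjusted p 0.0140). Its levels were 219 and 189 CPM in mutant untreated and 26.3 and 21.6 CPM in mutant oxLDL, against 186 CPM untreated and 155 CPM in oxLDL in wild type. Cebpb, a transcription factor of macrophages, had a difference of -1.76 (edgeR adjusted p 0.0391), with 31.2 and 28.1 CPM in mutant untreated, 17.3 and 18.3 CPM in mutant oxLDL, and 16.7 CPM untreated and 34.1 CPM in oxLDL in wild type. Both rest on 1 wild-type library per treatment.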

How the results depend on the processing

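Across other size factors, no filter, DESeq2, a replicate block, each library left out and the recovered reads, all 7 genes kept their direction for oxLDL, in the mutant and across genotypes, and Fcgr1, Fcgr3, Fcrls and Fcrl5 kept their call. With no filter on low counts, genotype in untreated cells gave 2435 genes (6 of the 7), genotype in oxLDL-treated cells 974 (3 of the 7), genotype across treatments 1387 and the interaction 546 (1 of the 7). With DESeq2 they were 391 in oxLDL-treated cells, 1413 across treatments and 215 for the interaction. The cause was not tested. The main counts were 896, 61, 514 and 62 genes. edgeR in wild type, with the spread of the mutant pairs lent to the single libraries, gave 2946 genes against 1926 by size.

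Replicate numbers are shared between the mutant groups, and same-numbered libraries deviated together with r = 0.263 over genes. With 2 pairs and no label on a shared culture, whether the numbers pair the libraries is not known. With the replicate block the interaction gave 162 genes and the Fcgr1 interaction was -0.0051. With oxLDL across genotypes under the block, 6 of the 7 genes were called.

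Leaving out 1 library, oxLDL in the mutant gave 2626 to 4529 genes (4515 with all). Genotype in untreated cells gave 80 to 1821 (0 to 5 of the 7 genes), the low end without mutant untreated replicate 1 and the high end without mutant oxLDL replicate 1. Genotype in oxLDL-treated cells gave 5 to 473 (0 to 1 of the 7), genotype across treatments 8 to 877 (0 to 3 of the 7) and the interaction 19 to 246 (0 to 1 of the 7). The low ends came without mutant untreated replicate 2 for oxLDL in the mutant and genotype across treatments and without mutant untreated replicate 1 for the other 2. The high ends came without mutant oxLDL replicate 2 (oxLDL-treated cells), wild type oxLDL (across treatments) and mutant oxLDL replicate 1 (interaction). Fewer libraries leave fewer residual degrees of freedom. Signs turned within these ranges for genes that were not called: Fcgr4 in oxLDL-treated cells (-0.55 to 0.56) and across treatments (-1.50 to 0.12), Fcgr3 in untreated cells (-0.27 to 0.31), the interactions of Fcgr1 (-0.30 to 0.25), Fcgr2b (-0.10 to 0.023) and Fcrl5 (-0.55 to 1.01), Fcgrt across treatments (-0.32 to 0.43) and Fcrl1 with oxLDL (-0.43 to 0.21). The ratio of summed activating receptors to Fcgr2b by treatment ran from -0.43 to 0.20, and was 0.18 and 0.068 per kilobase of transcript and of coding length. The lowest level of the 7 genes was that of Fcrl5 in mutant oxLDL replicate 1, at 0.933 CPM or 23 counts, where 3 counts correspond to 0.122 CPM.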
